A study of Mus musculus with 12 samples.

Results

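The upstream regulators of the myogenic programme examined here were Six4, Eya1, Eya2, Pax3 and Pax7. They were taken as every probe set that the array's probe-to-gene table lists under 1 of these 5 symbols. The table listed 7 such probe sets for 4 of the genes, out of 8252 genes on the array: 3 for Six4, 2 for Eya1, 1 for Eya2 and 1 for Pax3. It listed 0 for Pax7, which was not analysed here. Fibroblasts of the embryo-derived line 2C5/7, in which both MyoD and Myf5 are knocked out in every group, controls included, received a retrovirus that carried MyoD, Myf5 or myogenin, or hrGFP (a green fluorescent protein) alone. The viral LTR drove the factor, and hrGFP followed it on the same transcript. Each group was sorted for green fluorescence without cloning, to an estimated 75 to 85% of positive cells, grown in medium with 10% fetal calf serum and measured on 3 arrays, 12 in all. The labels state the question as the response of genes to MyoD or to Myf5 where neither endogenous gene works, and name myogenin and hrGFP as the controls.

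Six4 is a homeodomain transcription factor that binds a DNA element named MEF3, and Eya1 and Eya2 are phosphatase coactivators that Six4 and its relatives carry into the nucleus. Pax3 and Pax7 are paired-box factors of the dermomyotome, of migrating muscle precursors and of satellite cells. In the embryo these families act above the MyoD family: Six4 and its relatives, with Eya coactivators, act on Myog and Myf5, and Pax3 acts on Myf5 and on the receptor gene Met. Myod1, Myf5 and Myog code for the basic helix-loop-helix factors themselves, which bind a hexamer called the E-box.

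All tests below are differences of mean log2(signal + 6.3) after quantile normalization, fitted with limma over all 8485 probe sets that passed a filter on low signal, given ± the standard error (n = 3 arrays against 3) with the 95% interval and a Benjamini-Hochberg adjusted p. The filter kept probe sets with a deposited signal above 15 on at least 3 arrays. It kept 6 of the 7 member probe sets and left out the Eya2 probe set. Calls required an adjusted p below 0.05.

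Of the 6 member probe sets tested, 0 were called in any of the 6 pairwise comparisons of groups, that is in 0 of 36 tests, by limma. The lowest adjusted p was 0.154. An unadjusted p under 0.05 was reached in 7 of the 36 tests, of which 6 involved the myogenin arrays: 1 for MyoD against hrGFP (3.55% of all probe sets), 0 for Myf5 against hrGFP (2.99%), 3 for myogenin against hrGFP (11.5%), 0 for MyoD against Myf5 (3.70%), 2 for MyoD against myogenin (13.8%) and 1 for Myf5 against myogenin (9.18%). In 9 of the 36 the compared groups had no overlap in normalized level, namely 0 for MyoD against hrGFP (5.28% of all probe sets), 0 for Myf5 against hrGFP (8.66%), 3 for myogenin against hrGFP (18.1%), 2 for MyoD against Myf5 (9.76%), 2 for MyoD against myogenin (22.4%) and 2 for Myf5 against myogenin (26.4%). Among all probe sets tested, the share called was 0.412% for MyoD against hrGFP, 0.0118% for Myf5 against hrGFP, 0.130% for myogenin against hrGFP, 0.224% for MyoD against Myf5, 0.412% for MyoD against myogenin and 0.0354% for Myf5 against myogenin. At such shares a count of 0 among 6 probe sets does not set the members apart from the array. The median difference of the 6 probe sets from hrGFP was 0.16 with MyoD, -0.11 with Myf5 and -0.01 with myogenin, beside -0.01, -0.03 and -0.01 over all probe sets tested. In bulk RNA, fewer cells with a transcript and less of it per cell cannot be told apart.

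Median deposited signals ran from 16.3 to 35.9 over the arrays. Chip lot and hybridization day divided the arrays into 3 array batches, 1 with replicates 3 and 4 of MyoD, Myf5 and hrGFP, 1 with replicate 5 of these groups, and 1 with the 3 myogenin arrays. In each comparison with myogenin, batch and group therefore cannot be told apart. The MyoD 5 and hrGFP 5 arrays stood apart in their control ratios, and whether this reflects RNA quality was not tested. Their 3' to 5' signal ratios were 25.7 and 37.6 for the beta-actin control and 32.4 and 33.0 for the Gapdh control, where the other 10 arrays had at most 1.11 and 1.03. All 11 of the 12 listed fibroblast markers that were on the array passed the filter. Of the markers of other cell types on the array, the filter kept 3 of 6 for macrophages and leukocytes (Cd68, Csf1r and Cd14, without Ptprc, Lyz2 and Itgam), 1 of 5 for endothelium (Kdr), 2 of 5 for epithelium (Cdh1 and Krt18) and 5 of 7 for neural cells and neural crest (Sox10, Mbp, Gfap, Tubb3 and Dct), with 0 called against hrGFP by limma in any of these lists and 1, a neural marker with myogenin, at an unadjusted p under 0.05. The 6 skeletal muscle markers, like the other lists, were chosen with earlier results of these data known, so their counts are no independent check. All 6 were called higher with MyoD, and 1 of them with Myf5 and with myogenin. In both cases this was the acetylcholine receptor subunit Chrnb1, named after its values were seen. By limma 4 of the 6 had an unadjusted p under 0.05 with Myf5 (2.99% of all probe sets), and 4 with myogenin (11.5%). The median differences of the 6 from hrGFP were 4.52 with MyoD, 1.49 with Myf5 and 2.44 with myogenin.

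Groups are named by their labels, and the probe sets of the introduced genes did not follow all of them. Myod1, on 102986_at, had signals of 54.1, 52.4 and 41.3 on the MyoD arrays and 58.6, 38.4 and 50 on the hrGFP arrays (replicates 3, 4 and 5), which overlapped, and a difference of 0.01 ± 0.27 (-0.58 to 0.60, adjusted p = 1). Its highest signals, 84.4 to 100, were on the myogenin arrays (0.61 ± 0.27 against hrGFP, adjusted p = 0.417). Myf5, on 101162_at, had 79.6, 27.4 and 125 on the arrays labelled Myf5 and 77.2, 27.1 and 143 on the hrGFP arrays, a difference of -0.17 ± 0.37 (-0.98 to 0.65, adjusted p = 0.973). Myog, on 103053_at, had 89.2, 89.8 and 122 on the arrays labelled myogenin, above the 24.2, 33.9 and 53.1 of hrGFP (1.12 ± 0.47, adjusted p = 0.386) and below the 165 to 443 of MyoD. Where these probes lie relative to the viral inserts and to the deleted parts of the knocked-out genes was not analysed here, so these signals do not settle the labels in either direction. Every difference between groups below is one between libraries labelled in this way.

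**Figure D1:**
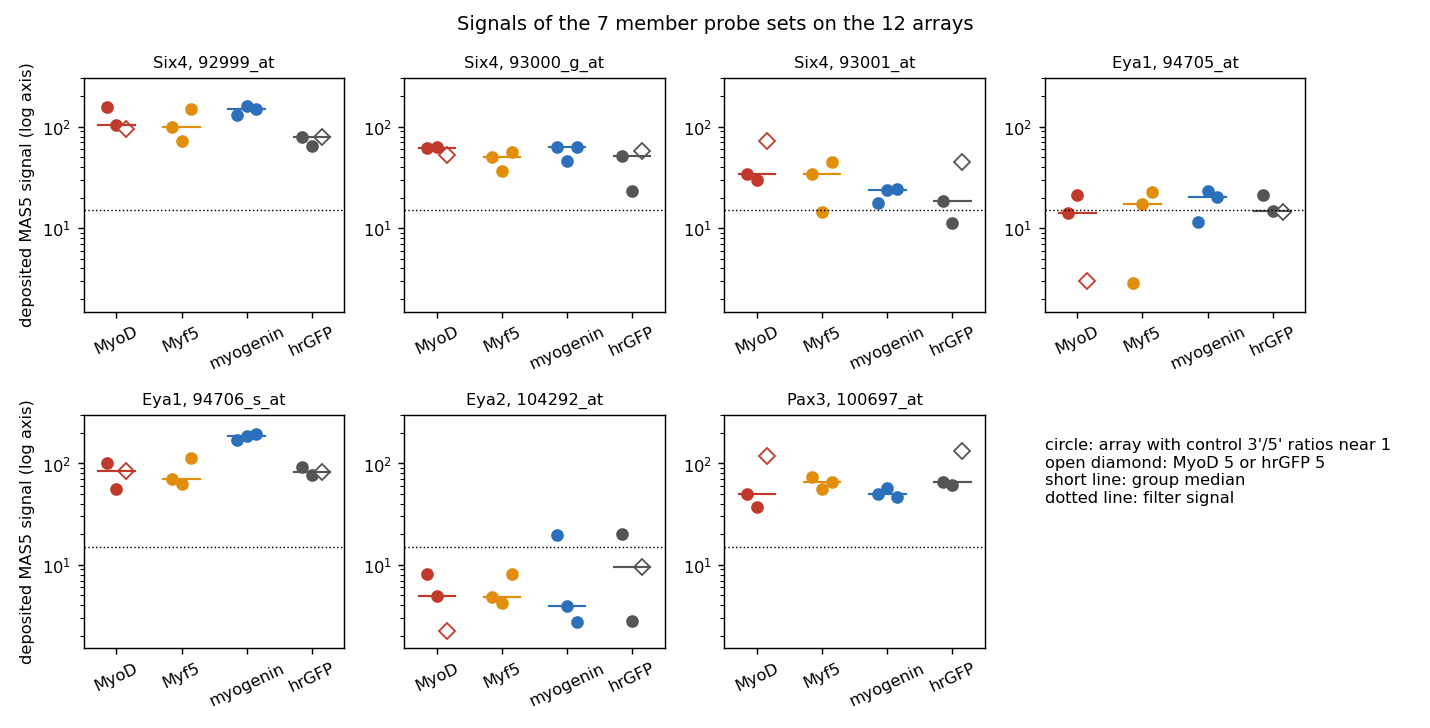
Deposited MAS5 signal (log axis) of the 7 member probe sets on the 12 arrays, by group, with the group median as a short line and the filter signal of 15 as a dotted line; open diamonds mark MyoD 5 and hrGFP 5. The 3 myogenin arrays lie above all others for Eya1 94706_s_at, the diamonds lie highest for Pax3, and Eya2 lies mostly under the dotted line.

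The promoter of Six4 and that of Myog, a described target of Six4, its relatives and the MyoD family, are shown because the values of these genes with MyoD are set side by side below. The 250 bases before a start site, read 5' to 3' on the strand of the gene from RefSeq promoter sequences of build GRCm38.p6, carry in capitals each match to the E-box CANNTG and to the MEF3 core TCAGGTT, searched on both strands. The windows are chr12:73113246-73113495 on the minus strand for Six4, the first of 2 listed start sites, and chr1:134289754-134290003 on the plus strand for Myog.
Six4 promoter: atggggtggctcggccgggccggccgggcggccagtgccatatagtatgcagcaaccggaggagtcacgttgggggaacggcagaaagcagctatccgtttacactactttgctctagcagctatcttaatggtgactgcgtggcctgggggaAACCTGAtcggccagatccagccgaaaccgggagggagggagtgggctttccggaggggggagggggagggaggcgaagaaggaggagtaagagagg
Myog promoter: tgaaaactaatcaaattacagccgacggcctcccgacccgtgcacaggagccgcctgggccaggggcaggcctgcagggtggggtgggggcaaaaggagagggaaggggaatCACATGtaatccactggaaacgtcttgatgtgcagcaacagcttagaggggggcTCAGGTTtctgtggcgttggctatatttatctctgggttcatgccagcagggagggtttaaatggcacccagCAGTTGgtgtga
The Six4 window held 0 E-boxes and 1 MEF3 core, on the opposite strand, which begins 97 bases before the start site. The window of the other Six4 start site, which overlaps this one, held neither. The Myog window held 2 E-boxes, which begin 138 and 12 bases before the start site, and 1 MEF3 core, which begins 84 bases before it. An E-box was present in 66.2% and the MEF3 core in 3.49% of 32851 promoter windows of the same length. The 2 motifs share no bases in these windows, and a match is a description of the letters, not a site of binding. Of the other members, a window was listed for Pax7.

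Six4 was measured by 3 probe sets, which did not give the same order of groups. On 92999_at the deposited signals were 157, 103 and 94.7 on MyoD 3, 4 and 5, 99.6, 72.1 and 149 on the Myf5 arrays of the same numbers, 132, 162 and 149 on myogenin 2, 3 and 6, and 79.0, 65.0 and 79.1 on hrGFP 3, 4 and 5. On this scale the MyoD arrays lay above all hrGFP arrays and overlapped those of myogenin, while the Myf5 arrays overlapped both. After normalization the MyoD arrays overlapped both groups, and the Myf5 arrays overlapped hrGFP and lay below myogenin. After normalization the mean log2 levels were 7.20 ± 0.12 (SD, n = 3) with myogenin, 7.02 ± 0.50 with MyoD, 6.71 ± 0.12 with Myf5 and 6.45 ± 0.37 with hrGFP, and none of the neighbours in this order differed past the test. Against hrGFP the difference was 0.57 ± 0.28 with MyoD (-0.03 to 1.17, adjusted p = 1), 0.26 ± 0.28 with Myf5 (-0.34 to 0.86, adjusted p = 0.973) and 0.75 ± 0.28 with myogenin (0.16 to 1.35, adjusted p = 0.338). After normalization the myogenin arrays lay above all hrGFP arrays. The difference with MyoD was positive in each of its 24 alternatives (0.33 to 0.81), several of which leave it unchanged by construction. It was 0.71 within the first array batch.

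The Six4 probe set 93000_g_at had signals of 61.8, 62.6 and 53.2 on the MyoD arrays and 51.9, 23.1 and 57.7 on the hrGFP arrays, in the order of replicates 3, 4 and 5. The Myf5 arrays gave 50.9, 36.3 and 56.6 and the myogenin arrays 63.3, 45.8 and 63.4. The groups overlapped except that the normalized MyoD arrays lay above those of Myf5. Its means were 6.14 ± 0.25 with MyoD, 5.85 ± 0.40 with myogenin, 5.70 ± 0.17 with Myf5 and 5.67 ± 0.22 with hrGFP. The difference from hrGFP was 0.47 ± 0.26 with MyoD (-0.08 to 1.03, adjusted p = 1), 0.03 ± 0.26 with Myf5 and 0.19 ± 0.26 with myogenin. The direction with MyoD was thus the same on this probe set, while MyoD stood above myogenin by 0.29 ± 0.26 here and differed from it by -0.19 ± 0.28 on 92999_at, a difference that turned to 0.07 without MyoD 5 and hrGFP 5.

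The Six4 probe set 93001_at, which the table ties to another Six4 sequence record than the other pair, gave signals of 34.3, 30.1 and 72.0 on MyoD 3, 4 and 5 and 18.5, 11.2 and 45.1 on hrGFP 3, 4 and 5. The Myf5 arrays gave 34.3, 14.4 and 45.0 and the myogenin arrays 17.8, 24.0 and 24.5. In both MyoD and hrGFP the array of replicate 5, with the high control ratios, was the highest of its group. Mean levels were 5.67 ± 0.45 with MyoD, 5.07 ± 0.32 with Myf5, 4.88 ± 0.62 with hrGFP and 4.64 ± 0.18 with myogenin, so the group that was highest on 92999_at was lowest here. Without MyoD 5 and hrGFP 5 the difference of myogenin from hrGFP turned from -0.23 to 0.13. MyoD differed from hrGFP by 0.79 ± 0.34 (0.05 to 1.53, adjusted p = 1) and from myogenin by 1.02 ± 0.34 (0.29 to 1.76, adjusted p = 0.247). Without MyoD 5 and hrGFP 5 these were 0.88 (adjusted p = 0.410) and 0.75 (adjusted p = 0.190), and within the first array batch the former was 0.85 (adjusted p = 0.995). The normalized MyoD arrays lay above all Myf5 and all myogenin arrays.

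Over the 12 arrays the Pearson correlation between Six4 probe sets was 0.40 for 92999_at and 93000_g_at, 0.32 for 93000_g_at and 93001_at and -0.22 for 92999_at and 93001_at. Without MyoD 5 and hrGFP 5 these were 0.51, 0.43 and 0.23. With MyoD all 3 probe sets stood higher than with hrGFP, by 0.47 to 0.79 on the log2 scale and without passing the test. This sign held in every alternative, several of which cannot change a difference. With myogenin the differences were 0.75, 0.19 and -0.23 over all arrays, and 0.64, 0.29 and 0.13 without MyoD 5 and hrGFP 5.

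**Figure D2:**
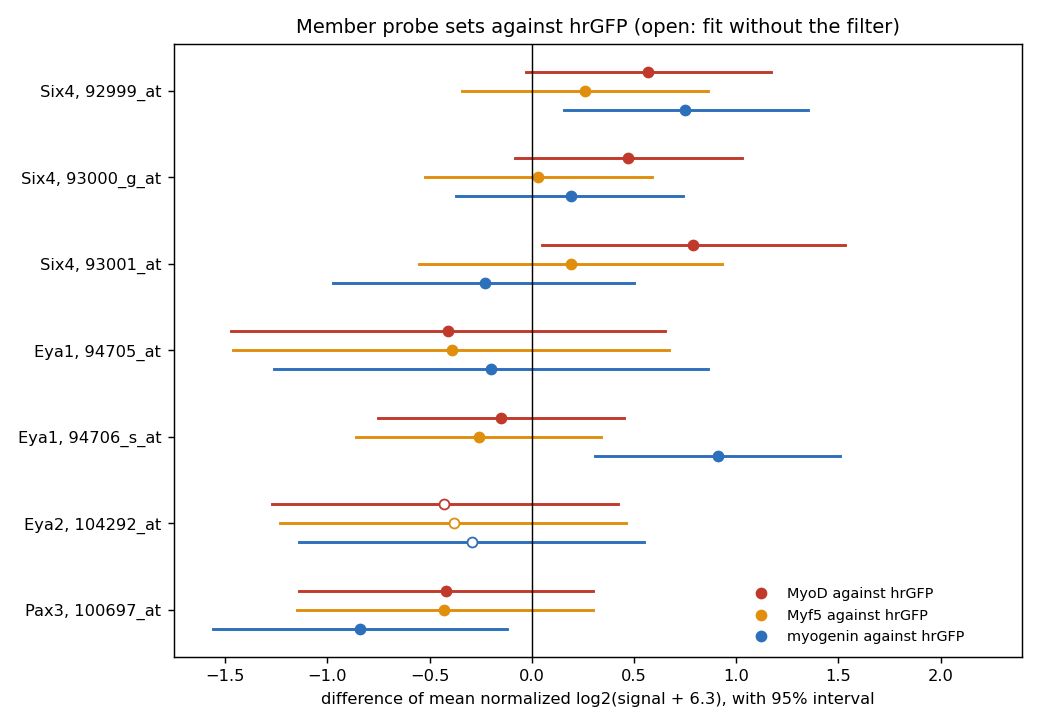
Difference of each member probe set from hrGFP on the log2(signal + 6.3) scale, as points with 95% intervals from limma, for MyoD, Myf5 and myogenin (n = 3 arrays a group). Of the 21 intervals, those of Six4 92999_at, Eya1 94706_s_at and Pax3 with myogenin and of Six4 93001_at with MyoD leave out 0, and none passes the adjusted test.

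Eya1 showed the largest separation of groups among the members, on 1 of its 2 probe sets. On 94706_s_at the myogenin arrays gave deposited signals of 169, 187 and 196. The MyoD arrays gave 100, 55.4 and 85.1, the Myf5 arrays 70.1, 62.6 and 113 and the hrGFP arrays 92.9, 77.1 and 82.6 (replicates 3, 4 and 5), so the myogenin arrays did not overlap with any other group. Normalized means were 7.53 ± 0.22 with myogenin, 6.62 ± 0.44 with hrGFP, 6.47 ± 0.34 with MyoD and 6.36 ± 0.24 with Myf5. Myogenin stood above hrGFP by 0.91 ± 0.28 (0.31 to 1.51, adjusted p = 0.257). MyoD differed from myogenin by -1.06 ± 0.28 (-1.66 to -0.46, adjusted p = 0.154) and Myf5 by -1.17 ± 0.28 (-1.77 to -0.57, adjusted p = 0.235). With limma fitted on the Myf5 and myogenin arrays alone, the last passed at -1.13 (adjusted p = 0.0318), a fit in which 151 probe sets were called in place of 3. MyoD and Myf5 differed from hrGFP by -0.15 ± 0.28 (-0.75 to 0.45) and -0.26 ± 0.28 (-0.86 to 0.34).

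The other Eya1 probe set, 94705_at, did not show this pattern. Its signals were 14.2, 21.0 and 2.99 on MyoD 3, 4 and 5, 2.90, 17.4 and 22.7 on Myf5 3, 4 and 5, 11.6, 23.2 and 20.2 on myogenin 2, 3 and 6 and 21.1, 14.8 and 14.5 on hrGFP 3, 4 and 5. They crossed the filter signal on 6 of 12 arrays, with 1 array each of MyoD and Myf5 far under it, and all 4 groups overlapped. Myogenin differed from hrGFP by -0.20 ± 0.49 (-1.26 to 0.86, adjusted p = 0.870). The suffix of 94706_s_at marks probes shared by several transcripts, so its signal need not be of one Eya1 transcript, and its correlation with 94705_at was 0.24 over 12 arrays. The summed normalized signal of the 11 fibroblast markers was also highest on the myogenin arrays, at 11032 to 13204, beside 6739 to 9861 on the other 9 arrays. By limma 0 of the 11 were called with myogenin against hrGFP. An unadjusted p under 0.05 was reached by 4, beside 11.5% of all probe sets. The markers did not move as 1 set. With myogenin the largest differences were those of Postn (2.45), Col1a1 (1.29) and Col1a2 (0.94), while Pdgfra (-0.68), S100a4 (-0.34) and Vim (-0.11) were lower than with hrGFP. The part of the summed marker signal in the level of 94706_s_at was not tested.

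Eya2, the other coactivator, gave low signals throughout on 104292_at, between 2.24 and 20.2, with 2 of 12 arrays above the filter signal. These were hrGFP 3 with 20.2 and myogenin 2 with 19.5, and in both groups the other arrays were lower, at 2.82 and 9.42 with hrGFP and 2.74 and 3.90 with myogenin. The MyoD arrays ran from 2.24 to 8.06 and the Myf5 arrays from 4.24 to 8.13. In the fit without the filter Eya2 differed from hrGFP by -0.43 ± 0.39 with MyoD (-1.27 to 0.42, adjusted p = 1), -0.38 ± 0.39 with Myf5 (adjusted p = 0.969) and -0.29 ± 0.39 with myogenin (adjusted p = 0.810). At such signals the pseudocount of 6.3 makes up much of the value and shrinks any difference.

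Pax3, on 100697_at, had a signal above 15 on all 12 arrays. Deposited signals were 50, 37.4 and 119 on MyoD 3, 4 and 5, 73.9, 56.0 and 65.8 on Myf5 3, 4 and 5, 50.4, 57.7 and 46.8 on myogenin 2, 3 and 6 and 65.1, 60.7 and 134 on hrGFP 3, 4 and 5. The 2 highest of the 12 were MyoD 5 and hrGFP 5, the arrays with the high control ratios. After normalization these stood at 6.77 and 6.87, with hrGFP 4 at 6.77 beside them, and the remaining arrays between 5.66 and 6.45. Means were 6.54 ± 0.49 with hrGFP, 6.12 ± 0.57 with MyoD, 6.11 ± 0.38 with Myf5 and 5.70 ± 0.05 with myogenin. Pax3 differed from hrGFP by -0.42 ± 0.33 with MyoD (-1.14 to 0.30, adjusted p = 1), by -0.43 ± 0.33 with Myf5 (-1.15 to 0.30, adjusted p = 0.973) and by -0.84 ± 0.33 with myogenin (-1.56 to -0.12, adjusted p = 0.362). Without MyoD 5 and hrGFP 5 the 3 differences were -0.55, -0.25 and -0.65 (adjusted p = 0.723, 0.980 and 0.338), and within the first array batch those with MyoD and Myf5 were -0.55 and -0.05. Whether the Pax3 signal depends on what raised these control ratios was not tested.

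**Figure D3:**
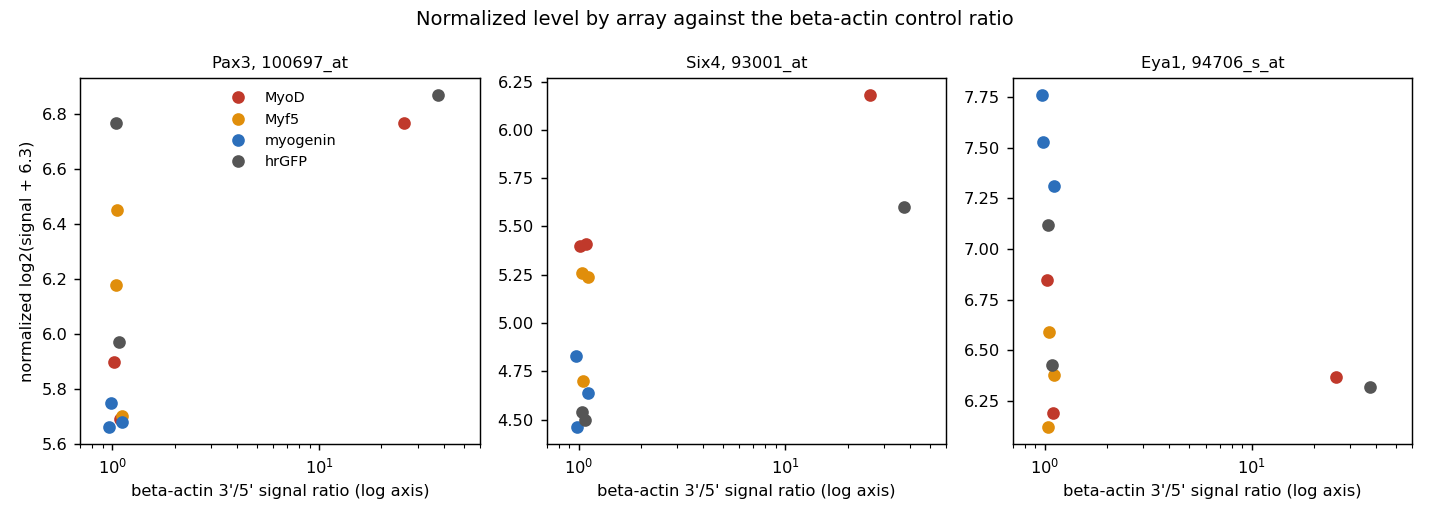
Normalized log2(signal + 6.3) of Pax3 100697_at, Six4 93001_at and Eya1 94706_s_at on each of the 12 arrays against the 3' to 5' signal ratio of the beta-actin control (log axis), coloured by group. The 2 arrays at ratios of 25.7 and 37.6 lie highest or level with the highest for Pax3, highest for Six4, and among the lower arrays for Eya1, where the 3 myogenin arrays lead.

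Leaving out each array in turn changed no call among the members. The difference of Eya1 94706_s_at between myogenin and hrGFP stayed between 0.74 and 1.17, that of Six4 92999_at between 0.64 and 0.97, and that of Pax3 between -1.12 and -0.66. For MyoD against hrGFP the Six4 differences stayed positive on all 3 probe sets, and the Pax3 difference stayed negative (-0.73 to -0.20). The differences from hrGFP that turned sign when 1 array was left out were those of Eya1 94705_at with MyoD (-0.81 to 0.07) and Myf5 (-0.75 to 0.11), Eya1 94706_s_at with MyoD (-0.34 to 0.10), Six4 93000_g_at with Myf5 (-0.08 to 0.15) and Six4 93001_at with myogenin (-0.42 to 0.13). That of Six4 93001_at with Myf5 reached 0.00.

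**Figure D4:**
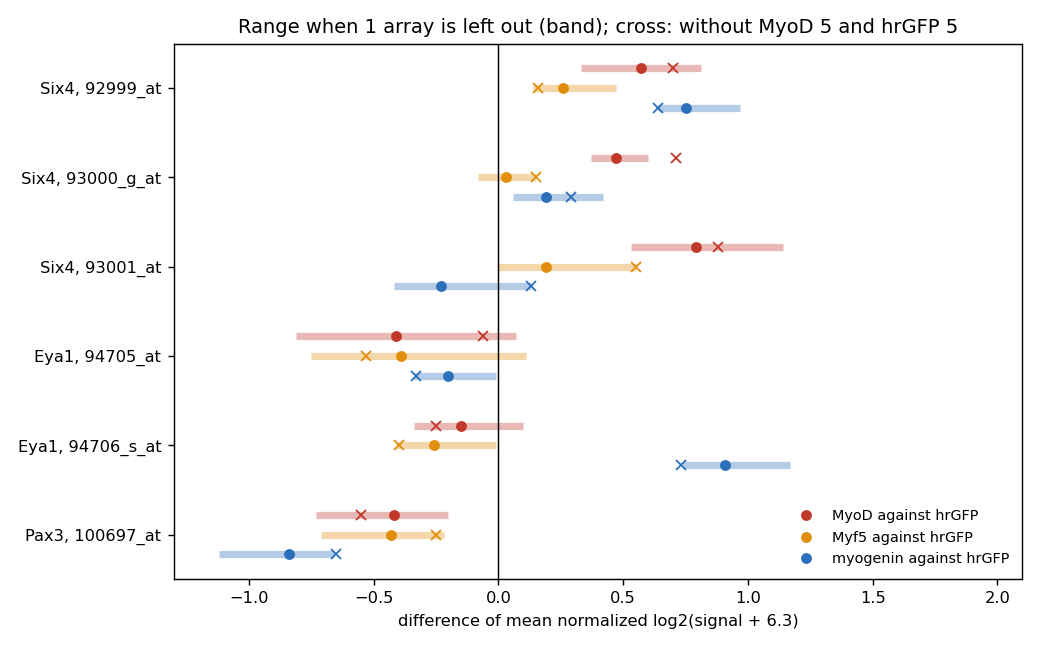
Difference from hrGFP of the 6 tested member probe sets with all arrays (points), the range when 1 array is left out (bands) and the value without MyoD 5 and hrGFP 5 (crosses), on the log2(signal + 6.3) scale. The bands of all 3 Six4 probe sets with MyoD lie right of 0, while those of Eya1 94705_at with MyoD and Myf5, Eya1 94706_s_at with MyoD, Six4 93000_g_at with Myf5 and Six4 93001_at with myogenin cross it.

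Other genes of these families and of the Dach family, whose proteins partner Eya, were mostly low. Of 16 other family genes listed, 14 were on the array and 5 passed the filter. The 9 that did not were Six3, Six5, Six6, Eya3, Eya4, Dach1, Pax6, Pax8 and Pax9, with median signals of 0.891 to 7.19 and a highest single signal of 27.7. The 5 tested were the homeodomain gene Six2 and the paired-box genes Pax1, Pax2, Pax4 and Pax5, and 0 were called against hrGFP with any factor by limma, also 0 at an unadjusted p under 0.05. Taking for each gene its largest difference from hrGFP, the values were those of Pax4 with Myf5 (-0.76 ± 0.54, adjusted p = 0.973), Pax2 with myogenin (0.68 ± 0.41, adjusted p = 0.525), Pax5 with Myf5 (-0.58 ± 0.44, adjusted p = 0.973) and Pax1 with Myf5 (-0.51 ± 0.32, adjusted p = 0.973). Six2 differed by -0.15, -0.31 and -0.17 with MyoD, Myf5 and myogenin.

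Of 20 genes described as acting downstream of these regulators, 18 were on the array and 15 were tested, among them the introduced genes Myod1, Myf5 and Myog. With MyoD, where 0.412% of all probe sets were called, 2 of the 15 rose and 0 fell (median difference -0.18, beside -0.01 over all probe sets). These were Myog, by 2.87 ± 0.47 (adjusted p = 0.0167), and Tnnt3, the fast troponin T, by 4.82 ± 0.46 (adjusted p = 2.33e-04). Myog signals lay between 165 and 443 on the MyoD arrays and between 24.2 and 53.1 on the hrGFP arrays, which did not overlap, but the call was lost without MyoD 3 (adjusted p = 0.0957), MyoD 4 (0.122) or hrGFP 3 (0.0869), and in the fit of the compared groups alone (0.259). With Myf5 and with myogenin 0 of the 15 were called by limma, and the medians were -0.02 and 0.26. At an unadjusted p under 0.05 there were 1 and 3, beside 2.99% and 11.5% of all probe sets. Without Myod1, Myf5 and Myog, a count added after seeing the data, 1 of 12 rose with MyoD and 0 of 12 with Myf5 or myogenin, with medians of -0.22, -0.01 and 0.07. The 1 was Tnnt3, which is also among the 6 skeletal muscle markers above, so the 2 lists are not separate for it. Tnnt3 with myogenin had 2.43 ± 0.46 (adjusted p = 0.0635) and passed with no pseudocount (4.24, adjusted p = 0.0129), with no normalization (0.0222) and without MyoD 5 (0.0418). Id3, an inhibitor of the MyoD family, differed by 0.55 to 0.71 with the 3 factors, and Ckm, the muscle creatine kinase, by -0.61, 0.22 and 0.59, without passing. Ckm signals were low on the MyoD arrays, at 5.58, 6.37 and 20.4. The other Ckm probe set, which the filter left out, placed MyoD above hrGFP instead, with means of 3.93 and 3.30. Its signals on the MyoD arrays were 2.83, 6.61 and 20.4, so 1 array stood out at a low level. Thus Myog rose with MyoD while Six4 differed by 0.47 to 0.79 and passed on none of its probe sets, values of the same contrast set side by side and not tested against each other.

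Of 32 other regulators and markers of somites and satellite cells, 28 were on the array and 21 were tested. By limma 0 were called with any factor. An unadjusted p under 0.05 was reached by 3 with MyoD (3.55% of all probe sets), 0 with Myf5 (2.99%) and 4 with myogenin (11.5%). Dll1, a Notch ligand, came nearest, with signals between 48.3 and 160 on the MyoD arrays, between 4.13 and 19.9 on the hrGFP arrays, and a difference of 2.64 ± 0.53 (1.48 to 3.80, adjusted p = 0.0659). It passed in 4 of 24 alternatives, among them the first array batch alone (2.63, adjusted p = 0.0475), and had 0.83 ± 0.53 with Myf5 and 1.47 ± 0.53 with myogenin. Its other probe set did not pass the filter. Cdh15, the M-cadherin of satellite cells, had 1.54 ± 0.56 with MyoD (adjusted p = 1), and passed in 1 of 19 alternatives, without MyoD 5 (2.28, adjusted p = 0.0476). Its signals ran from 7.42 to 67.6 with MyoD and from 2.68 to 9.54 with hrGFP, which overlapped. The other Cdh15 probe set, left out by the filter, had means of 3.92 with MyoD and 3.74 with hrGFP. Sdc4, a heparan sulfate proteoglycan, had 2.33 ± 0.92 with myogenin (adjusted p = 0.362), with signals of 240 to 275 there and 83.6, 95.8 and 4.96 on hrGFP 3, 4 and 5. Leaving out hrGFP 5 lowered this difference to 1.18 (adjusted p = 0.763), and leaving out MyoD 5 as well gave 1.16 (adjusted p = 0.292). Cd34, a surface glycoprotein of quiescent satellite cells, differed by -0.99 ± 0.48 with MyoD without passing.

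Probe sets of other genes with the most similar course over the 12 arrays were named as a description, since all points share arrays, groups and normalization. For Six4 92999_at they were Cd82, a tetraspanin (r = 0.90), the laminin receptor subunit Itga7 (0.90) and the phosphatase gene Ptpn14 (0.89). For Six4 93000_g_at they were the muscle calcium pump gene Atp2a1 (0.83), Tmem223 (0.82) and Lmo2 (0.81). For Six4 93001_at they were the mitochondrial protease gene Parl (0.96), Pdhb of pyruvate dehydrogenase (0.95) and Tmed4 (0.93). The Six4 probe sets shared none of these genes, which with 3 named for each is no measure of how far they agree. Eya1 94706_s_at ran closest to P4hb, a protein disulfide isomerase (0.96), Hdgf (0.96) and Htra2 (0.95), and Eya1 94705_at to Hoxb3 (0.88), Renbp (0.86) and Mapk8ip1 (0.84). Pax3 ran closest to Zfp942 (0.91), Ddt (0.91) and the kinase gene Map2k6 (0.89).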

How the data were processed

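Total RNA of 12 cell samples was hybridized to MG_U74Av2 oligonucleotide arrays, 3 for each of 4 groups, which were taken with their replicate numbers from the labels. The deposited values are intensity signals of probe sets, which per the submitters' processing notes come from MAS5; its version and scaling are unknown here. Their trimmed means (2% left out at each end) ran from 41.4 to 103, so quantile normalization was used. The deposited run files hold other information, of which lot and hybridization day served to find array batches.

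The pseudocount of 6.3 and the filter signal of 15 are the 25th and 40th percentiles of all signals. Group means were estimated from all 12 arrays for 8485 of 12422 probe sets without array controls, in limma 3.58.1 (R 4.3.3), with a variance trend, Benjamini-Hochberg adjustment over each comparison's probe sets and calls at an adjusted p under 0.05. The fit was checked on simulated data. Labels do not say that replicates are separate cultures, so p-values measure the spread between these samples, which may be technical; the small number of arrays limits precision. Genes were named from a platform table (10833 probe sets with 1 symbol, 396 with several, 1193 without).

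The members and lists were chosen with earlier results of these data known. Named were all member probe sets, all other family genes, every called gene and up to 4 genes of largest difference from hrGFP per list, by the probe set of highest mean, and the 3 genes of highest correlation with each tested member probe set. Alternatives were other pseudocounts, normalizations, filters, variance models and array sets, blocks for replicate number and array batch, and leaving out each array.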

Additional observations from a re-analysis of the deposited data

How the results depend on the processing

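Over 135 recomputed counts of member probe sets called, 134 stayed at 0. The exception was Myf5 against myogenin in the fit of these groups alone, with 1 called (Eya1 94706_s_at); the number of probe sets called there also rose from 3 to 151, and the cause was not tested. Of 809 recomputed member differences, 806 moved by less than 1 SD between arrays, 2 by more, and 1 became called. Among the 809, 31 changed sign, none of them called, and 23 of 36 differences never changed sign. Filters and variance models leave a difference as it was by construction, and leaving out an array of an uncompared group moves it only through normalization. Leaving out an array of a compared group also stays under 1 SD, normalization aside. The 806 are therefore no measure of how stable the differences are. Labels give MyoD, Myf5 and hrGFP the numbers 3, 4 and 5. Deviations of same-numbered arrays correlated at -0.007 to 0.827 over 9 pairs. The highest value was that of MyoD 5 and hrGFP 5, the arrays with the high control ratios. Differently numbered arrays ran from -0.671 to 0.483. The main fit did not take the numbers to pair samples. With the replicate number as a block 0 member probe sets were called in MyoD against hrGFP, Myf5 against hrGFP and MyoD against Myf5, and over all probe sets 35, 4 and 17, beside 35, 1 and 19 without it; not every array correlated best with its own number. Over all alternatives the number of probe sets called ran from 12 to 42 for MyoD against hrGFP (12 without MyoD 4), from 1 to 4 for Myf5 against hrGFP, from 0 to 50 for myogenin against hrGFP, from 3 to 28 for MyoD against Myf5 (3 without MyoD 3), from 2 to 58 for MyoD against myogenin and from 0 to 151 for Myf5 against myogenin. Without normalization the median over all probe sets shifted by 0.18 for myogenin against hrGFP and by -0.17 for MyoD against myogenin. Beside that shift the differences of Six4 92999_at, Eya1 94706_s_at and Pax3 for myogenin against hrGFP were 0.93, 1.07 and -0.60. Signals of Eya2 and Eya1 94705_at lay near or under the filter signal, which limits what they can show.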

Other observations

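The run files of 9 arrays carry an internal sample code, with 8 distinct codes among them: Myf5 5 and hrGFP 5 share theirs. Their deposited columns are not identical, and their beta-actin 3' to 5' ratios are 1.11 and 37.6.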
